A study of Mus musculus with 6 samples.

Results

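Glutathione transferases and the core antioxidant enzymes, with the transcription factors that control many of them, were examined across 6 mouse tumour grafts. The set was defined by gene name, and it was chosen with earlier results of these data known. It took in protein-coding genes of the alpha, kappa, mu, omega, pi, theta and zeta glutathione transferase classes, with numbered glutathione peroxidases and peroxiredoxins. It also held 16 single genes of the NRF2 pathway, glutathione synthesis, the thioredoxin system, catalase and superoxide dismutase. This gave 51 genes out of 39179 gene identifiers, 22740 of them protein-coding. A count was recorded for 49 of the 51, and 44 had enough reads to be tested. Gpx5 and Gpx6 had no read in any library, and Gsta1, Gsta2, Gstm3, Gstp2 and Gstt4 were too low to test.

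The libraries came from grafts of MMTV-Neu tumour cells grown in mice of the FVB strain, 3 labelled AXL KO and 3 labelled WT. MMTV-Neu is a mouse breast cancer model in which a virus promoter active in mammary epithelium drives the Neu oncogene, the rat form of ErbB2, and both groups carry it. AXL is a receptor tyrosine kinase, and the series compares AXL-/- with AXL+/+ grafted cells, so the genotype is that of the grafted cells, and any host cell in the graft adds its own RNA. The labels give neither the AXL genotype of the hosts nor their age, the number of cell lines behind each group, or whether the 3 grafts of a group grew in separate animals, so p-values measure the spread between these samples and that spread may be technical. Counts in genes were between 28808499 and 32491807 in the libraries labelled AXL KO and between 26541009 and 29977133 in those labelled WT. Axl itself averaged 60.1 ± 13.1 CPM in the libraries labelled AXL KO and 60.4 ± 8.95 CPM in WT (SD, n = 3 each), a log2 fold change of -0.01 ± 0.16 (SE, edgeR adjusted p = 0.978). CPM are counts scaled to the size of the library and a library factor. The deleted part of Axl is not given in the sources used here, so this level does not check the genotype, and AXL KO below means the label.

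Glutathione is a small sulphur-containing peptide that cells use to detoxify electrophiles and peroxides. Glutathione transferases join it to reactive compounds, glutathione peroxidases use it to reduce peroxides, and glutathione reductase recycles it with NADPH, while peroxiredoxins do similar work with electrons from thioredoxin. Many of these genes are switched on by NRF2, encoded by Nfe2l2, which pairs with small MAF proteins on antioxidant response elements and is held down by KEAP1. In tumours the pathway is known for protection against oxidative stress and for drug resistance.

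More antioxidant genes were lower than higher in the grafts labelled AXL KO. Of the 44 tested genes, 19 were lower in AXL KO and 2 were higher by the edgeR quasi-likelihood test at an adjusted p under 0.05, and 23 were not called. Among all 14850 tested genes, 18.3% were called lower, 19.1% higher and 37.4% in either direction. The lower share here was 43.2%, and the median log2 fold change was -0.29, against 0.00 over all tested genes. As the genes were chosen with earlier results of these data known, these shares only describe the set. Without AXL KO 3, 13 of the genes were called lower, with 1733 lower genes in all, and without WT 1 the median was -0.20. The values of AXL KO and WT libraries did not overlap for 25 of the 44 genes, or 56.8%, against 52.1% of all tested genes, and in 21 of these 25 every AXL KO library was below every WT library, which held for 25.2% of all tested genes. Nfe2l3, Gpx2, Gstm1, Gstm6, Gsto1, Gstm2 and Hmox1 were called at 2-fold or more below WT, a size and call that 4.82% of all tested genes had. These are bulk RNA values, so fewer cells of a type and less RNA per cell cannot be told apart.

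**Figure D1:**
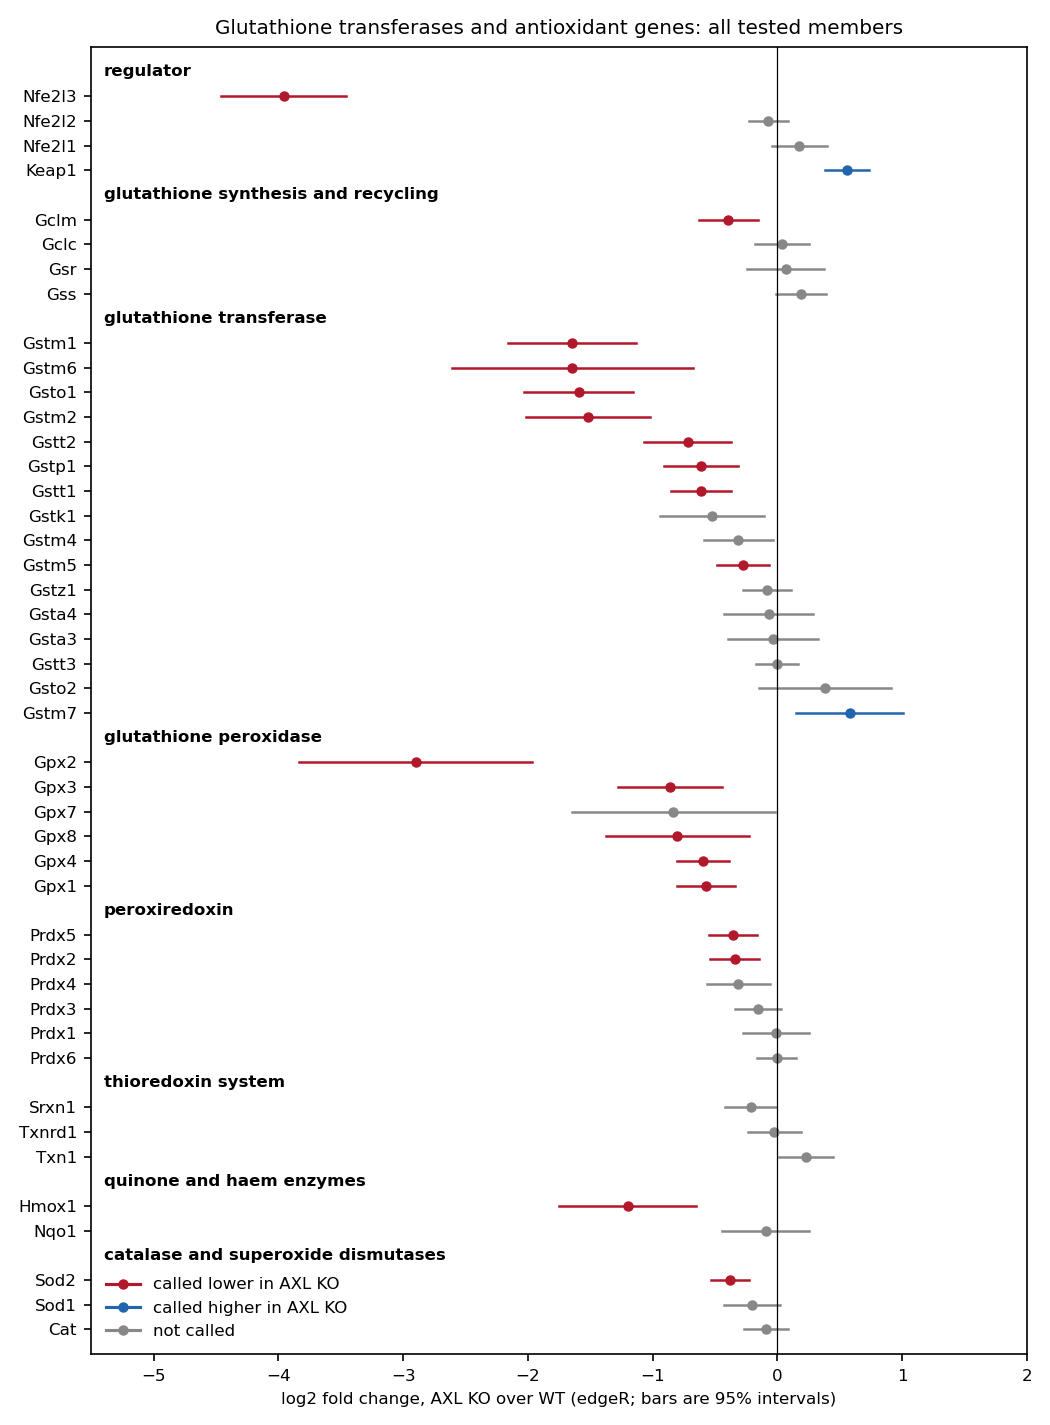
Log2 fold change, AXL KO over WT, of the 44 tested genes grouped by role, from the edgeR fit; points are estimates, bars are 95% intervals, red marks genes called lower, blue genes called higher and grey genes not called. Nfe2l3 at -3.96 and Gpx2 at -2.90 stand farthest from 0, 19 genes are red and 2 are blue.

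The regulators did not move together. Nfe2l3, which encodes NRF3, a relative of NRF2 that is made in the endoplasmic reticulum, was at 1.28, 1.36 and 0.821 CPM in AXL KO libraries 1 to 3, against 14.2, 19.2 and 20.6 CPM in WT libraries 1 to 3. All 3 AXL KO libraries lay far below the lowest WT library, with 36, 44 and 25 counts in AXL KO and 385, 577 and 590 counts in WT. Its log2 fold change was -3.96 ± 0.22, or 15.5-fold lower, with an edgeR adjusted p of 7.92e-06; log2 fold changes here and below are AXL KO over WT and carry their SE, also where they stand in brackets without a name. The gene lies on chromosome 6, 51432670 to 51458768 of GRCm38, and shares no 50-base stretch with any other annotated transcript.

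Keap1, the adaptor that hands NRF2 to a ubiquitin ligase, went the other way. It was at 68.7, 64.0 and 72.7 CPM in AXL KO libraries, against 46.4, 48.5 and 44.5 CPM in WT, with no overlap between the groups. The log2 fold change was 0.56 ± 0.08 (edgeR adjusted p = 0.000953). Tested genes of chromosome 9, where Keap1 lies at 21229730 to 21239361, had 0.20 as the median of their log2 fold changes, and relative to that median Keap1 was still called higher, at 0.36. An antisense transcript, Gm16754, covers 10.9% of its exons, and without a statement on strand its reads cannot be told from those of Keap1.

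NRF2 itself was not called different. Nfe2l2 had 98.9, 105 and 99.5 CPM in AXL KO libraries, against 106, 104 and 110 CPM in WT, and the 95% interval of its log2 fold change was -0.23 to 0.08. Nfe2l1, which encodes NRF1, a regulator of proteasome genes, averaged 306 ± 6.77 CPM in AXL KO and 270 ± 36.2 CPM in WT, with an interval of -0.04 to 0.40. Per kilobase of exon, Nfe2l1 was the most abundant of the NFE2L genes, at 56.2 CPM per kb in AXL KO and 49.7 in WT, while Nfe2l3 was at 0.387 in AXL KO and 6.05 in WT.

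**Figure D2:**
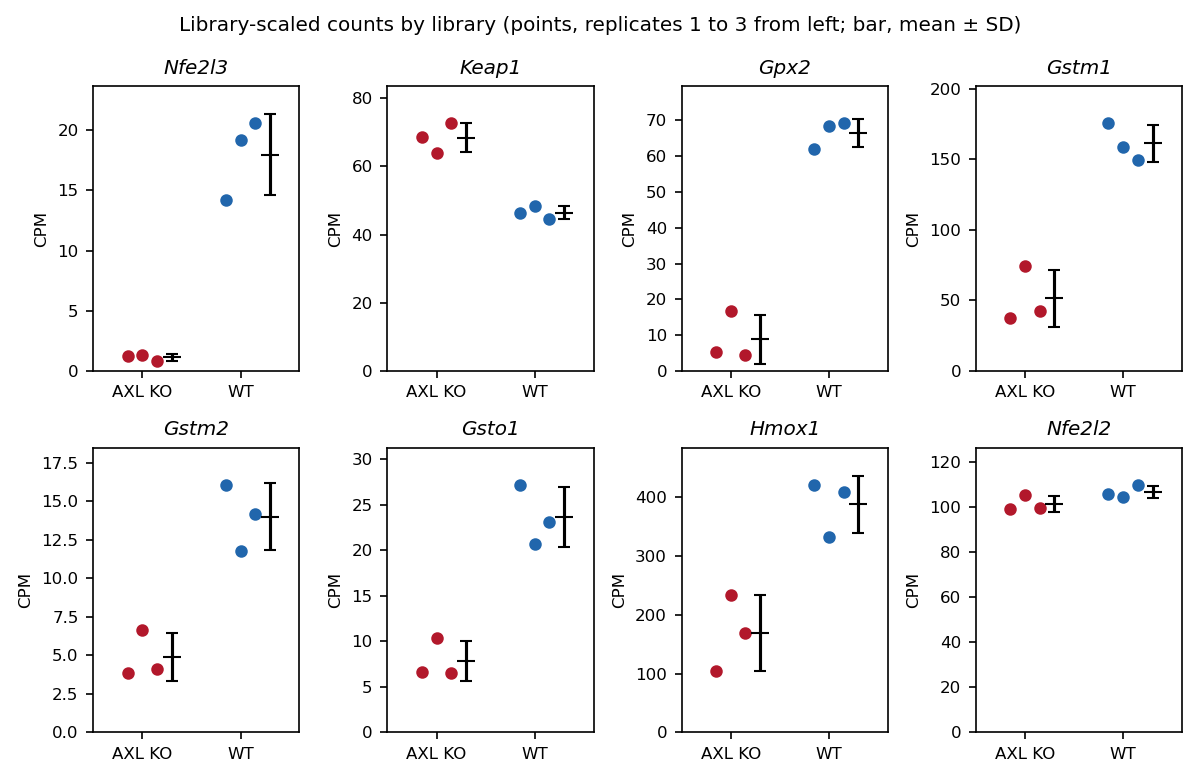
Library-scaled counts (CPM) of 8 genes in each library; red points are AXL KO, blue points are WT, and the black bar beside each group is mean ± SD over 3 libraries. Nfe2l3, Gpx2, Gstm1, Gstm2, Gsto1 and Hmox1 are lower in all 3 AXL KO libraries than in any WT library, Keap1 is higher, and Nfe2l2 overlaps.

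Promoters were read for the core of the antioxidant response element, the site of NRF2 and its relatives, spelled TGACNNNGC and searched on both strands from 250 bases before to 50 after each RefSeq start (GRCm38.p6). Of 45 antioxidant genes with such a window, 9 held the core, or 20%, against 14.0% of the 27025 genes with a window. Some genes have several windows. Counted by window, 9 of 62 held the core, or 14.5%, against 12.4% of all 32851 windows. It was in the windows of 2 of 17 genes called lower, Gclm and Gstm5, of Gstm7 among the 2 called higher, and of 6 of 19 uncalled genes, Gsta3, Nfe2l2, Prdx1, Sod1, Srxn1 and Txnrd1. With the core followed by an A, a longer form that contains the first, only Gsta3 and Txnrd1 were left. They made up 4.44% of the 45 genes, against 3.45% of all genes. A match is a string in a window and not a measured site, and Gclc, Gsr, Gsta4, Gstt2, Hmox1 and Prdx6 had no window to search. The stretches of the 2 lower genes and of 3 uncalled ones are shown to set the core, in capitals, beside its surroundings; each reads 5′ to 3′ on the strand of its gene, and in Gclm, Prdx1 and Txnrd1 the core lies on the other strand. The Gstm5 stretch ends where its first annotated exon begins.
Gclm, called lower, chr3:122245398-122245456, plus strand, core 134 bases before the start: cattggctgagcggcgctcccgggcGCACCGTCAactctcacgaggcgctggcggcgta
Gstm5, called lower, chr3:107895787-107895820, plus strand, core 42 bases before the start: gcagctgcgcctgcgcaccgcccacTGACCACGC
Prdx1, not called, chr4:116685441-116685499, plus strand, core 133 bases before the start: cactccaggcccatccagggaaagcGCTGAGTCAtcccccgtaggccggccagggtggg
Txnrd1, not called, chr10:82859089-82859147, plus strand, core 92 bases before the start: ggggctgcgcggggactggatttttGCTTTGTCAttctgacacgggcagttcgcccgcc
Gsta3, not called, chr1:21240439-21240497, plus strand, core 121 bases before the start: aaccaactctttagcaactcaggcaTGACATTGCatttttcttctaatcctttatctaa

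Glutathione synthesis changed in 1 of its 4 genes, which was lower in AXL KO, or 25%, against 18.3% of all tested genes called lower. Gclm, the modifier subunit of the enzyme that makes the first link of glutathione, fell to 63.3, 77.6 and 66.8 CPM in AXL KO libraries, against 98.4, 80.9 and 93.6 CPM in WT. The gap between the highest AXL KO and the lowest WT library was small, the log2 fold change was -0.39 ± 0.11 (edgeR adjusted p = 0.0179), and the call ended without AXL KO 1, AXL KO 3 or WT 3 (edgeR adjusted p = 0.0753, 0.0704 and 0.0663). The core in its promoter window is shown above. Gclc, the catalytic subunit of the same enzyme, averaged 36.4 ± 0.935 CPM in AXL KO and 35.5 ± 4.09 CPM in WT, with an interval of -0.18 to 0.25. Glutathione synthetase, Gss, had 45.3 ± 1.8 CPM in AXL KO and 39.7 ± 3.6 CPM in WT, without overlap (edgeR adjusted p = 0.116). Glutathione reductase, Gsr, had 44.9 ± 1.94 CPM in AXL KO and 42.9 ± 8.63 CPM in WT (edgeR adjusted p = 0.731).

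Glutathione transferases were lower as often as they were not. Of 21 genes 16 were tested, 8 were lower in AXL KO, Gstm7 was higher and 7 were not called, with a median log2 fold change of -0.42. So 50% of the tested transferases were lower and 6.25% higher, against 18.3% and 19.1% of all tested genes. Summed over all 21, the transferases took 342 to 399 CPM in the AXL KO libraries and 527 to 620.0 CPM in WT. The mu class, which lies as a cluster of 7 genes on chromosome 3 and conjugates many foreign electrophiles, held the largest differences and the widest range.

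Gstm1 was the most abundant mu gene in WT per kilobase of exon, at 109 CPM per kb, against 35.0 in AXL KO. It was at 37.2, 74.6 and 42.7 CPM in AXL KO libraries, against 176, 159 and 149 CPM in WT. AXL KO 2 stood above the other two AXL KO libraries and still below every WT library, and the log2 fold change was -1.64 ± 0.23, or 3.13-fold lower (edgeR adjusted p = 0.000842). Near-identical relatives share 18.9% of its 50-base stretches, among them Gstm3 and the pseudogene Gstm2-ps1, so reads from those stretches may be missing from its counts.

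Gstm2, its neighbour at 107981702 to 107986453, was at 3.83, 6.67 and 4.14 CPM in AXL KO libraries, against 16.1, 11.8 and 14.2 CPM in WT. The groups did not overlap, and the log2 fold change was -1.52 ± 0.22 (edgeR adjusted p = 0.00103). Gstm6 was near the limit of detection, with 6, 7 and 2 counts in AXL KO libraries against 16, 17 and 12 in WT, and a log2 fold change of -1.64 ± 0.43 (edgeR adjusted p = 0.0158). That call ended with DESeq2 (adjusted p = 0.0515) and without AXL KO 3 (edgeR adjusted p = 0.0516).

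Further along the same cluster the changes were small and of both signs. Gstm5 had 37.6, 39.4 and 38.6 CPM in AXL KO libraries, against 52.4, 41.8 and 45.7 CPM in WT, a log2 fold change of -0.27 ± 0.09 (edgeR adjusted p = 0.0462). Leaving out any library other than WT 2 ended this call, and without WT 1 the log2 fold change was -0.18. Gstm7 rose to 1.84, 1.95 and 2.10 CPM in AXL KO libraries, against 1.21, 1.4 and 1.33 CPM in WT, with a log2 fold change of 0.58 ± 0.19 (edgeR adjusted p = 0.0386), a call that leaving out any 1 library ended, as did DESeq2 (adjusted p = 0.126). Gstm4 averaged 9.21 ± 0.135 CPM in AXL KO and 11.5 ± 1.4 CPM in WT, without overlap, and was not called (edgeR adjusted p = 0.0732). Gstm3 had no read in AXL KO and at most 0.0698 CPM in WT. Tested genes of chromosome 3 had a median log2 fold change of -0.01.

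**Figure D3:**
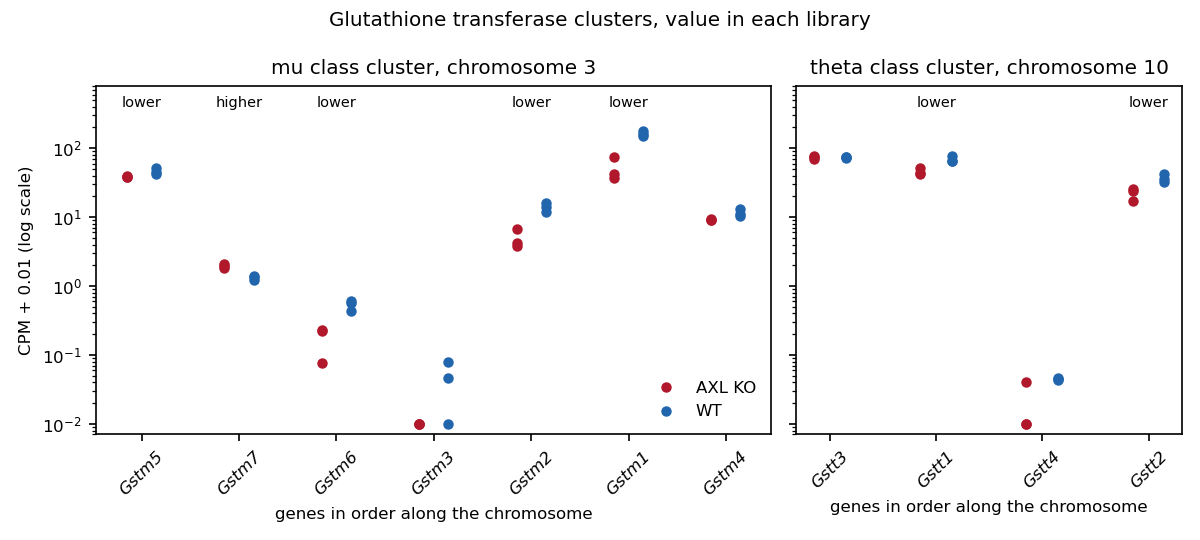
CPM plus 0.01, on a log axis, of each mu class gene of chromosome 3 and each theta class gene of chromosome 10, in their order along the chromosome; red points are AXL KO libraries, blue points are WT libraries, and genes that were called carry the word lower or higher. Gstm6, Gstm2 and Gstm1 are lower in AXL KO by 3.12-, 2.86- and 3.13-fold, while Gstm7 between Gstm5 and Gstm6 is higher and Gstt3 overlaps.

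Gsto1, an omega class enzyme that reduces oxidised thiols, was among the most different of the other classes. It had 6.59, 10.4 and 6.50 CPM in AXL KO libraries, against 27.2, 20.7 and 23.1 CPM in WT. Each AXL KO library was below the lowest WT library, and the log2 fold change was -1.59 ± 0.19, or 3.01-fold lower (edgeR adjusted p = 0.000428). Gsto2, the next gene on chromosome 19, averaged 1.19 ± 0.149 CPM in AXL KO and 0.912 ± 0.139 CPM in WT and was not called (edgeR adjusted p = 0.225).

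In the theta class, which acts on small halogenated compounds, Gstt1 was at 42.3, 51.2 and 43.4 CPM in AXL KO libraries, against 78.4, 66.2 and 64.5 CPM in WT (log2 fold change -0.61 ± 0.11, edgeR adjusted p = 0.00266). Gstt2 had 24.2, 25.5 and 17.2 CPM in AXL KO, against 42.2, 35.2 and 32.8 CPM in WT (log2 fold change -0.72 ± 0.16, edgeR adjusted p = 0.00705). Both were lower in all AXL KO libraries, while their neighbour Gstt3 averaged 73.6 ± 4.55 CPM in AXL KO and 73.7 ± 1.8 CPM in WT, with an interval of -0.17 to 0.17. Tested genes of chromosome 10 had a median log2 fold change of -0.20, and relative to it Gstt1 and Gstt2 were still called, at -0.41 and -0.52.

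Gstp1, the pi class enzyme often abundant in epithelial tumours, fell to 26.8, 27.2 and 24.8 CPM in AXL KO libraries, against 47.8, 32.6 and 40.5 CPM in WT. The log2 fold change was -0.61 ± 0.13 (edgeR adjusted p = 0.00664), and Gstp2, a near-identical copy, shares 33.7% of its 50-base stretches. Kappa class Gstk1 had 1.73 ± 0.106 CPM in AXL KO and 2.49 ± 0.291 CPM in WT without overlap, and it narrowly missed the threshold (edgeR adjusted p = 0.0505). Gsta3 and Gsta4 of the alpha class and Gstz1, which acts in tyrosine breakdown, had log2 fold changes of -0.04, -0.07 and -0.08 and were not called. The untested Gsta1, Gsta2, Gstp2 and Gstt4 stayed below 0.5 CPM in every library.

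Glutathione peroxidases had the largest share of lower genes among the roles compared, with 5 of the 6 tested lower in AXL KO, none higher and a median log2 fold change of -0.82. Their lower share was 83.3%, against 18.3% of all tested genes, and rests on 6 genes. Summed over the family they took 564 to 637 CPM in AXL KO and 929 to 1065 CPM in WT. Gpx2, known as an epithelial enzyme of the gut and an NRF2 target, was at 5.28, 16.8 and 4.50 CPM in AXL KO libraries, against 62.1, 68.5 and 69.2 CPM in WT. AXL KO 2 was over 3 times the other two AXL KO libraries and far below WT, and the log2 fold change was -2.90 ± 0.41, or 7.46-fold lower (edgeR adjusted p = 0.000959). Without AXL KO 2 it was -3.77 (edgeR adjusted p = 1.39e-06). A pseudogene, Gpx2-ps1, shares most of the 6.03% of its 50-base stretches found elsewhere.

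Gpx1, the cytosolic enzyme, and Gpx4, which reduces lipid peroxides in membranes, were the 2 most abundant of the family per kilobase. Gpx1 had 261, 255 and 209 CPM in AXL KO libraries, against 383, 326 and 367 CPM in WT (log2 fold change -0.57 ± 0.10, edgeR adjusted p = 0.00309). Gpx4 had 330, 321 and 322 CPM in AXL KO, against 554, 474 and 442 CPM in WT (log2 fold change -0.59 ± 0.09, edgeR adjusted p = 0.00141). Neither overlapped between groups. A pseudogene copy, Gpx4-ps2, shares 34.7% of the 50-base stretches of Gpx4. Relative to the medians of their chromosomes, Gpx1 was at -0.77 and Gpx4 at -0.39, and both calls held.

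Gpx3, which is secreted, was at 20.6, 34.3 and 22.0 CPM in AXL KO libraries, against 49.2, 49.9 and 40.5 CPM in WT, a log2 fold change of -0.86 ± 0.18 (edgeR adjusted p = 0.00683). Gpx8, an enzyme of the endoplasmic reticulum, had 3.79, 7.20 and 4.14 CPM in AXL KO libraries, against 10.7, 8.04 and 7.67 CPM in WT (log2 fold change -0.80 ± 0.25, edgeR adjusted p = 0.0341). In both, AXL KO 2 was the highest AXL KO library and closest to WT, and the Gpx8 call ended when any library other than AXL KO 2 was left out, with edgeR adjusted p-values of 0.0541 to 0.113. Gpx7, also of the endoplasmic reticulum, averaged 2.22 ± 0.771 CPM in AXL KO and 3.98 ± 1.76 CPM in WT, overlapped and was not called (edgeR adjusted p = 0.0974).

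Selenium-dependent peroxidases need the machinery that inserts selenocysteine. Of 17 genes of selenoprotein synthesis and of other selenoproteins 4 were lower and 2 were higher in AXL KO. These were 23.5% and 11.8%, against 18.3% and 19.1% of all tested genes, and the median log2 fold change of the list was -0.03. Secisbp2l, a relative of the factor that binds the selenocysteine element of these transcripts, had 1013 ± 85.0 CPM in AXL KO and 429.9 ± 64.6 CPM in WT (log2 fold change 1.24 ± 0.12, edgeR adjusted p = 0.000117). Sepsecs, which makes the tRNA-bound amino acid, was also higher (0.30 ± 0.08, edgeR adjusted p = 0.0140). The selenoprotein Selm (-1.21 ± 0.18, edgeR adjusted p = 0.00128) and Lrp8, a receptor that takes up selenoprotein P (-0.64 ± 0.18, edgeR adjusted p = 0.0201), were lower. The lower count was 1 without AXL KO 1 and 2 without WT 3, and the higher count was 1 without AXL KO 3 or WT 3.

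Hmox1, the haem-degrading enzyme that NRF2 and BACH1 control, was lower in the AXL KO libraries, while the quinone reductase Nqo1, a standard NRF2 target, was not called. Hmox1 was at 105, 233 and 168 CPM in AXL KO libraries, against 421, 332 and 409 CPM in WT. The AXL KO libraries varied more than 2-fold among themselves and none reached the lowest WT library. Its log2 fold change was -1.20 ± 0.24, or 2.30-fold lower (edgeR adjusted p = 0.00516). Nqo1 was low in both groups, at 3.08 ± 0.0375 CPM in AXL KO and 3.29 ± 0.226 CPM in WT, with an interval of -0.44 to 0.25.

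Genes of haem and iron handling went both ways. Of 16 tested genes 4 were lower, or 25%, and 3 were higher, or 18.8%, against 18.3% and 19.1% of all tested genes, and their median log2 fold change was -0.23. The ferritin heavy chain Fth1 fell to 287, 447 and 319 CPM in AXL KO libraries, against 863, 927 and 920.1 CPM in WT (log2 fold change -1.36 ± 0.15, edgeR adjusted p = 0.000259), and the light chain Ftl1 to 472 ± 81.3 CPM in AXL KO, against 738 ± 53.7 CPM in WT (-0.65 ± 0.12, edgeR adjusted p = 0.0036). Steap3, a ferric reductase, was lower at -0.86, and the fourth lower gene, the iron exporter Slc40a1, had 27.7, 75.3 and 42.2 CPM in AXL KO and 155, 85.4 and 112 CPM in WT (-1.28 ± 0.34, edgeR adjusted p = 0.0166). Ireb2, the iron-sensing RNA-binding protein that holds back ferritin translation, was higher (0.42 ± 0.07, edgeR adjusted p = 0.00237), as were Aco1 and Slc46a1. The higher count was 1 without AXL KO 1 and 1 relative to chromosome medians. Processed pseudogenes of the ferritins may take some of their reads, and Slc40a1, Aco1 and Slc46a1 were named after their values were seen.

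Red cell markers differed in the same direction as Hmox1 and the ferritins. All 6 tested of 8 red cell markers were lower in AXL KO, against 18.3% of all tested genes. The sum over all 8 was 152 to 237 CPM in AXL KO and 647 to 1023 CPM in WT, and none of the 8 was at 0. The beta globin gene Hbb-bs had 135 ± 34.1 CPM in AXL KO and 541 ± 120 CPM in WT, and Hba-a1 and Hbb-bt had log2 fold changes of -2.25 and -2.15. Red cells carry much catalase, Prdx2 and Gpx1 protein, and the part of these cells in the results for Hmox1, Prdx2, Gpx1, Fth1 and Cat was not tested. Cat, with 275, 272 and 278 CPM in AXL KO and 270, 293 and 316 CPM in WT, was not called. Macrophages, which recycle haem iron, had 12 tested markers with 1 higher and 1 lower, or 8.33% each, against 19.1% and 18.3% of all tested genes. Their summed level was 491 to 665 CPM in AXL KO and 487 to 667 CPM in WT. Their complement genes C1qa, C1qb and C1qc were not called.

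**Figure D4:**
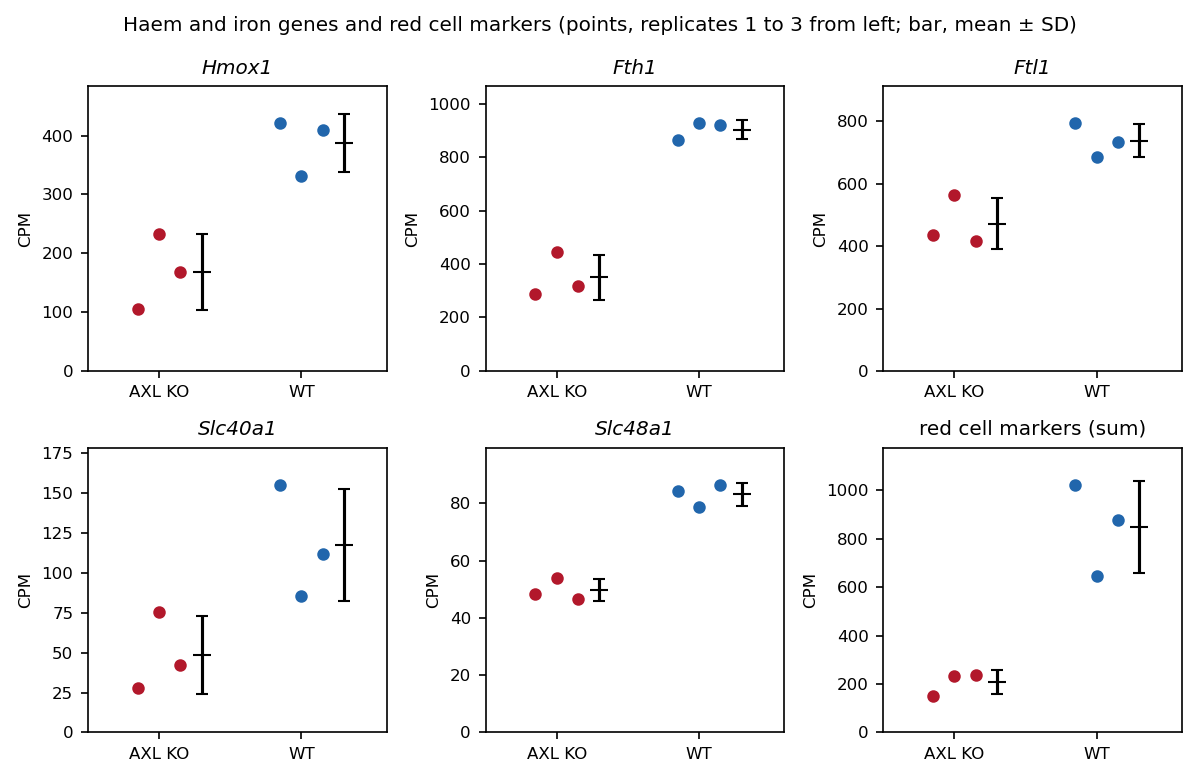
CPM of Hmox1, of 4 genes of iron storage, iron export and haem transport, and of the sum of 8 red cell markers in each library; red points are AXL KO, blue points are WT, and the black bar beside each group is mean ± SD over 3 libraries. All 6 panels have the 3 AXL KO libraries below the 3 WT libraries. The red cell sum is 152 to 237 CPM in AXL KO and 647 to 1023 CPM in WT. Every gene drawn was called lower in AXL KO, and Ireb2, Aco1 and Slc46a1, which were called higher, are not drawn.

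Peroxiredoxins moved little. Of 6 genes 2 were lower in AXL KO, or 33.3%, against 18.3% of all tested genes. None was higher, against 19.1% of all tested genes, and the median log2 fold change was -0.23. Prdx2, a cytosolic enzyme, was at 257, 271 and 250 CPM in AXL KO libraries, against 361, 296 and 329 CPM in WT (log2 fold change -0.34 ± 0.09, edgeR adjusted p = 0.0144). Prdx5, found in mitochondria, peroxisomes and cytosol, was at 76.3, 81.7 and 72.8 CPM in AXL KO, against 107, 94.3 and 93.9 CPM in WT (-0.35 ± 0.08, edgeR adjusted p = 0.0107). Neither gene overlapped between groups, yet the Prdx2 call ended without AXL KO 1, AXL KO 3 or WT 3 (edgeR adjusted p = 0.0540, 0.0668 and 0.0507) and the Prdx5 call without AXL KO 3 (edgeR adjusted p = 0.0572). Exons of Trmt112 on the other strand cover 19.1% of Prdx5, and exons of Junb and Rnaseh2a 5.67% and 5.80% of Prdx2.

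The most abundant peroxiredoxin per kilobase, Prdx1, had 386, 455 and 422 CPM in AXL KO libraries, against 480.0, 354 and 435 CPM in WT, fully overlapping, with an interval of -0.27 to 0.26. Prdx6, which reduces phospholipid peroxides, averaged 247 ± 12.4 CPM in AXL KO and 247 ± 5.28 CPM in WT (interval -0.16 to 0.15). The mitochondrial Prdx3 and the endoplasmic reticulum enzyme Prdx4 had log2 fold changes of -0.16 and -0.31 and were not called (edgeR adjusted p = 0.158 and 0.0556).

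None of the 3 genes of the thioredoxin system was called, while 37.4% of all tested genes were called in either direction. Txn1, the electron donor of the peroxiredoxins, averaged 198 ± 5.48 CPM in AXL KO and 169 ± 20.4 CPM in WT, without overlap (log2 fold change 0.23 ± 0.09, edgeR adjusted p = 0.0841). Txnrd1, the reductase that recharges it, was at 161 ± 8.34 CPM in AXL KO and 163 ± 18.6 CPM in WT, and Srxn1, which repairs over-oxidised peroxiredoxins, at 34.9 ± 3.04 CPM in AXL KO and 40.5 ± 2.33 CPM in WT (edgeR adjusted p = 0.0906). Srxn1 and Txnrd1 both hold the response element core, as given above.

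Superoxide dismutases turn superoxide into hydrogen peroxide. Sod2, the mitochondrial form, was at 142, 144 and 136 CPM in AXL KO libraries, against 188, 177 and 183 CPM in WT, a narrow spread in both groups and a log2 fold change of -0.38 ± 0.07 (edgeR adjusted p = 0.00277). It lies on chromosome 17, whose tested genes had a median log2 fold change of -0.26, and relative to that median Sod2 was at -0.12 and no longer called (edgeR adjusted p = 0.197). Other transcripts, mostly AC166110.4 and Rps6ka2, share 21% of its 50-base stretches. Sod1, the cytosolic form, had 103 ± 4.78 CPM in AXL KO and 118 ± 15.7 CPM in WT and was not called (edgeR adjusted p = 0.144).

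The AXL KO libraries were not alike across the lower genes. AXL KO 2 was the highest of the 3 AXL KO libraries in 17 of the 19 lower genes, or 89.5%, against 59.7% of all 2717 genes called lower. It was also the highest in 13 of the 23 uncalled genes. Summed fibroblast markers were highest in AXL KO 2 as well (2133 CPM, against 1326 and 1299 in AXL KO 1 and 3). The same held for endothelial markers (249, against 187 and 209) and macrophage markers (665, against 568 and 491). It did not hold for epithelial, red cell, fat cell, liver, kidney or skeletal muscle markers. The part of these cells in the position of AXL KO 2 was not tested. Summed over all 51 genes the libraries took 3811, 4101 and 3826 CPM in AXL KO and 5127, 4548 and 4890 CPM in WT.

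**Figure D5:**
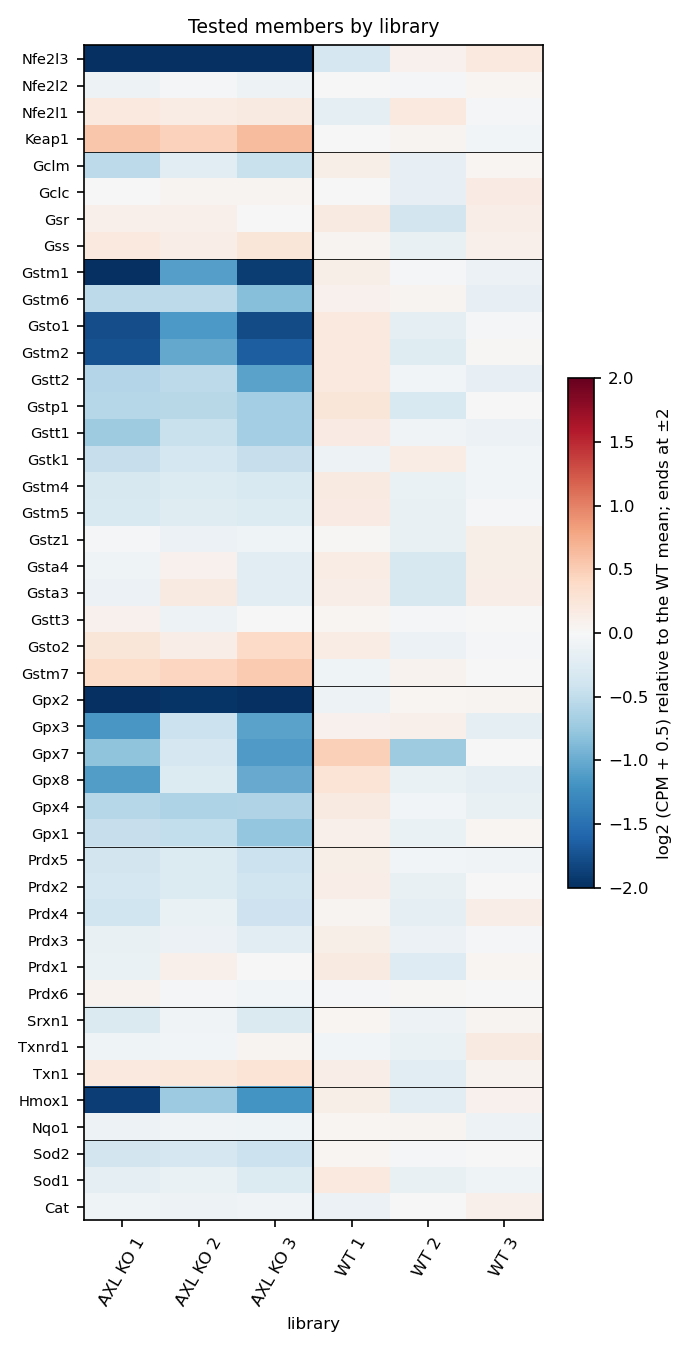
Each tested gene (rows, grouped by role) in each library (columns, AXL KO 1 to 3 left of WT 1 to 3), coloured by log2 (CPM + 0.5) relative to the mean of the WT libraries, with the colour scale ending at -2 and 2. Blue bands run through all AXL KO columns for Nfe2l3, Gpx2, Gstm1, Gsto1, Gstm2 and Hmox1, paler in AXL KO 2 for Gstm1, Gsto1, Gstm2 and Hmox1, and Keap1 and Gstm7 are red.

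Around the regulators, 17 NRF2 partners and regulators were tested, of which 5 were higher and 2 lower in AXL KO, with a median log2 fold change of 0.16. That made 29.4% higher and 11.8% lower, against 19.1% and 18.3% of all tested genes. Maff, a small MAF partner, fell to 12.2, 12.5 and 9.53 CPM in AXL KO libraries, against 20, 28.5 and 28.2 CPM in WT (log2 fold change -1.17 ± 0.16, edgeR adjusted p = 0.000884). Bach2, a repressor that also pairs with small MAF proteins, rose to 44.9, 38.0 and 42.7 CPM in AXL KO, against 14.5, 22.4 and 22.4 CPM in WT (1.08 ± 0.16, edgeR adjusted p = 0.00115). Neither gene overlapped between groups. Ddi2, the protease that activates NRF1, averaged 208 ± 9.29 CPM in AXL KO and 134 ± 15.1 CPM in WT (0.64 ± 0.09, edgeR adjusted p = 0.00112). Fbxw11, an F-box protein of the beta-TrCP type that marks NRF2 for destruction, averaged 129 ± 5.72 CPM in AXL KO and 89.6 ± 8.97 CPM in WT (0.53 ± 0.09, edgeR adjusted p = 0.0022).

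Genes that supply or consume glutathione were lower more often than higher, with 10 of 24 tested lower, 3 higher and a median log2 fold change of -0.33. The shares were 41.7% and 12.5%, against 18.3% and 19.1% of all tested genes. Ggt6, of the gamma-glutamyltransferase family, had 0.884 ± 0.123 CPM in AXL KO and 2.27 ± 0.315 CPM in WT (-1.36 ± 0.22, edgeR adjusted p = 0.00169). Slc3a2, the heavy chain of the cystine transporter, had 119 ± 9.90 CPM in AXL KO and 176 ± 18.3 CPM in WT (-0.57 ± 0.10, edgeR adjusted p = 0.00236). Glo1 and Hagh, the glyoxalases that use glutathione to clear methylglyoxal, were both lower, at -0.44 and -0.34 (edgeR adjusted p = 0.00368 and 0.00596). The lower count was 5 without AXL KO 3, 6 without WT 3 and 6 relative to chromosome medians, and the higher count was 1 without AXL KO 1, AXL KO 3 or WT 2.

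Relatives of the glutathione transferases outside the classes above had 5 of 13 tested lower and 1 higher, at a median log2 change of -0.26. These were 38.5% and 7.69%, against 18.3% and 19.1% of all tested genes. The genes that moved are known mostly for other work: Clic1 and Clic4 are chloride channel proteins with a transferase fold, Vars is a tRNA ligase and Ptges2 a prostaglandin synthase. Clic1 had 208 ± 14.1 CPM in AXL KO and 327 ± 12.6 CPM in WT (-0.65 ± 0.08, edgeR adjusted p = 0.00037), Vars was at -0.41 and Ptges2 at -0.31, while Clic4 was higher at 0.33 (edgeR adjusted p = 0.00531, 0.0193 and 0.0202). The lower count was 2 without AXL KO 1, AXL KO 3 or WT 3, and the higher count was 0 without AXL KO 3 and relative to chromosome medians.

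Other classical NRF2 target enzymes had 5 of 25 tested lower and 1 higher, at a median log2 change of -0.13. These were 20% and 4%, against 18.3% and 19.1% of all tested genes. The haem transporter Slc48a1 was lower (-0.75 ± 0.08, edgeR adjusted p = 0.000304), as were Ugdh, which makes the sugar acid for glucuronidation (-0.69 ± 0.11, edgeR adjusted p = 0.00196), Aox1, an aldehyde oxidase (-0.84 ± 0.17, edgeR adjusted p = 0.00563), and the glutathione conjugate exporter Abcc1 (-0.55 ± 0.12, edgeR adjusted p = 0.00752). Without WT 2 the higher count was 2. Enzymes of NADPH supply had 3 of 15 lower, or 20%, and 2 higher, or 13.3%, at a median log2 change of -0.10. Me1, malic enzyme, had 444 ± 52.1 CPM in AXL KO and 685 ± 24.6 CPM in WT (-0.62 ± 0.09, edgeR adjusted p = 0.00127). Tkt, transketolase, was lower at -0.68, and the mitochondrial folate enzyme Mthfd1l at -1.16 (edgeR adjusted p = 0.00113 and 0.000871). The mitochondrial transhydrogenase Nnt was higher at 0.44 (edgeR adjusted p = 0.0016). Relative to chromosome medians 5 NADPH genes were lower.

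Thioredoxin relatives and other redox proteins went both ways, with 7 of 25 lower, 6 higher and a median of -0.00. The shares were 28% and 24%, against 18.3% and 19.1% of all tested genes. The lactonase gene Pon3 rose to 81.7, 76.7 and 79.6 CPM in AXL KO libraries, against 26.2, 32.9 and 26.3 CPM in WT (1.48 ± 0.10, edgeR adjusted p = 2.22e-05), and Sesn3, a stress-induced sestrin, was higher at 0.64 (edgeR adjusted p = 0.00252). Mt1, a metal-binding metallothionein, had 74.1 ± 7.21 CPM in AXL KO and 133 ± 17.6 CPM in WT (-0.85 ± 0.11, edgeR adjusted p = 0.000705), and Nxn, nucleoredoxin, was lower at -0.71 (edgeR adjusted p = 0.00192). The higher count was 3 without AXL KO 3 and 2 without WT 3.

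Genes that produce superoxide and peroxide had 2 of 12 tested lower and 2 higher, at a median log2 change of -0.12. Each was 16.7%, against 18.3% lower and 19.1% higher among all tested genes. Cybb, the oxidase subunit of phagocytes, had 51.4, 73.1 and 52.5 CPM in AXL KO libraries, against 28.7, 32.8 and 28.5 CPM in WT (0.98 ± 0.14, edgeR adjusted p = 0.00099), and its partner Rac2 was higher at 0.56. Noxo1, an organiser of the epithelial oxidase, had 41.2 ± 3.73 CPM in AXL KO and 67.5 ± 2.49 CPM in WT (-0.71 ± 0.09, edgeR adjusted p = 0.000428). Nox4 had 3.10 ± 1.36 CPM in AXL KO and 7.32 ± 0.940 CPM in WT (-1.23 ± 0.27, edgeR adjusted p = 0.00785). The lower count was 4 without AXL KO 2, and the higher count was 1 without WT 3.

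Markers of the other cells a graft can hold were read beside these genes. Of 9 endothelial markers 8 were lower, or 88.9%, against 18.3% of all tested genes. Their sum was 187 to 249 CPM in AXL KO and 321 to 360.5 CPM in WT. The 3 most abundant of them, Pecam1, Cdh5 and Kdr, had log2 fold changes of -0.65, -0.62 and -0.38. None of 9 fat cell markers was called, with 74.2 to 184 CPM in AXL KO and 143 to 233 CPM in WT, nor any of 8 fibroblast markers, with 1299 to 2133 CPM in AXL KO and 1687 to 2878 CPM in WT. Yet all 8 fibroblast markers had log2 fold changes below 0, with a median of -0.44. For fat cells 6 of 9 were below 0, with a median of -0.29. Of 8 tested epithelial markers 4 were lower, or 50%, and 2 higher, or 25%, against 18.3% and 19.1% of all tested genes. The epithelial sum was 11497 to 13637 CPM in AXL KO and 11218 to 12598 CPM in WT. Erbb2 made up most of that sum, and without it, a sum taken after the data were seen, the other 8 markers had 3281 to 3619 CPM in AXL KO and 4350.3 to 4700.2 CPM in WT, with no overlap. Krt19 had 0.247 CPM at most and was not tested. Epcam and Krt18 were lower, at log2 fold changes of -0.53 and -0.60, and Erbb2 was higher at 0.36. Both groups carry Neu, the rat form of ErbB2, and whether its reads were counted at Erbb2 was not tested. Markers of liver, a tissue rich in glutathione transferases, summed to 0.788 to 5.38 CPM in AXL KO and 1.26 to 2.37 CPM in WT, with 3 of 7 genes at 0. Kidney markers summed to 0.834 to 1.24 CPM in AXL KO and 0.698 to 0.994 CPM in WT, with 3 of 5 genes at 0, and skeletal muscle markers to 1.35 to 1.66 CPM in AXL KO and 0.802 to 1.21 CPM in WT. The part of endothelial cells, of fibroblasts and of epithelial cells in the lower transferases and peroxidases was not tested.

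The authors' deposited table of their own comparison gives log2 fold changes as WT over AXL KO, so a positive value there means lower in AXL KO. In the authors' deposited table Nfe2l3 stood at 3.87, Gpx2 at 2.49, Gstm1 at 1.57 and Hmox1 at 1.14, and Keap1 at -0.55. The deposited adjusted p of Gstm7 in the authors' deposited table was 0.130, with a log2 fold change of -0.55. Prdx4, not called above, stood at 0.31 in the authors' deposited table, with a deposited adjusted p of 0.0359. At a deposited adjusted p under 0.05, 20 of 46 genes of the set were lower in AXL KO and 1 was higher. Among all 16513 genes with a deposited adjusted p, 2761 were lower and 2756 higher.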

How the data were processed

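RNA-seq was available for 6 tumour grafts, 3 labelled AXL KO and 3 labelled WT, grouped by title. CASAVA 1.8, TopHat2 2.0.10, HTSeq 0.5.3, DESeq2 1.4.5 and GRCm38 are named in the submitters' processing notes, without settings. Not given in the sources used here: strand use, read length and whether grafts came from separate animals. The authors deposited a raw count per gene for each library, with 5 rows that name no gene, which were left out. Not unique alignments made up 25.7% to 26.9% of counted lines in AXL KO and 27.3% to 29.0% in WT, so reads of near-identical copies are largely missing. Alignments in no gene made up 5.55% to 6.88% in AXL KO and 4.41% to 5.37% in WT. Ambiguous ones made up 0.717% to 0.896% in AXL KO and 0.993% to 1.09% in WT. None of these shares overlapped between the groups, and their part in the results was not tested. Their table, per the file headers, holds a signal per library (count over a size factor), the log2 fold change, a score (its test statistic) and p-values of the authors. It was used for gene names and described, not retested.

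Genes passing filterByExpr (minimum count 10, minimum total 15) numbered 14850 of 21716 with a count. AXL KO was set over WT in a quasi-likelihood fit of edgeR 4.0.16 (R 4.3.3), with TMM factors of 0.980 to 1.02 and group as the only term, and p-values were adjusted by Benjamini and Hochberg over all 14850 genes, with calls at 0.05. The biological coefficient of variation was 0.117 with 4 residual degrees of freedom, and an exact permutation test of 3 against 3 cannot go below p = 0.1. SE came from the F statistic, and intervals are 95%. CPM are counts over library size times TMM factor, with SD over 3 libraries. The chi-square per gene between libraries was 11.6 to 30.9 within a group and 99.3 to 160.2 between groups, so none was treated as a repeat. Code was tested on simulated data.

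Positions are from GENCODE M21 (37607 identifiers matched), and promoter windows from RefSeq GRCm38.p6, matched by symbol for 45 of 51 genes. Flvcr1, Sels and Ahsp of the gene lists were not matched. A planned comparison of protein sequences was replaced by the share of a gene's 50-base transcript stretches found in other genes. The genes and lists were chosen with earlier results of these data known. Named were every gene of the set with a count, up to 4 genes of smallest p in each further list, up to 3 of highest CPM in each marker list, and Axl. Alternatives were DESeq2 1.42.0, limma-voom (limma 3.58.1), other size factors, other filters, a replicate block, a stricter threshold, chromosome medians and each library left out.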

Additional observations from a re-analysis of the deposited data

How the results depend on the processing

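Across 15 alternatives no tested gene of the set that was called changed direction, and 13 of the 21 called genes kept their call in each of them. The 8 others were Gclm, Gpx8, Gstm5, Gstm6, Gstm7, Prdx2, Prdx5 and Sod2. The number lower in AXL KO was 13 to 21 over the left-out libraries, 13 at an adjusted p under 0.01, 21 with DESeq2 or upper-quartile size factors in edgeR, 19 with DESeq2, and 18 with limma-voom, with all genes unfiltered, with genes under a mean log2 CPM of 2 removed, with the replicate block or relative to chromosome medians. The number higher was 1 with DESeq2, with all genes unfiltered, with genes under a mean log2 CPM of 2 removed, with the replicate block and at an adjusted p under 0.01. It was 1 to 2 over the left-out libraries. Gstm7 dropped out in all of these, and with genes under a mean log2 CPM of 2 removed it was untested. Without WT 1 or WT 2 the number stayed at 2, as Txn1 and Nfe2l1, respectively, were called higher there. Of 23 uncalled genes 6 were called under some alternative: Gpx7, Gstk1, Prdx4, Nfe2l1, Srxn1 and Txn1. The cause of these changes was not tested. Libraries of the same number in AXL KO and WT had correlations of -0.0593, -0.129 and 0.140 of their deviations from the group means, so the numbers were not taken as pairs; with the block 2458 genes were higher and 2373 lower in all. The promoter core followed by an A left 2 genes in place of 9. With 3 libraries a group and a few counts per library, Gstm6 and the 5 untested genes with reads are limited by depth.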
